A study of Mus musculus with 4 samples.

Results

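The genes described here encode the killing machinery of cytotoxic lymphocytes: the granzymes Gzma, Gzmb, Gzmc, Gzmk and Gzmm, perforin (Prf1), serglycin (Srgn) and Fas ligand (Fasl). They were taken by gene symbol from the deposited gene list, in which each of the 8 symbols named 1 of the 32285 genes. In the GENCODE M21 annotation of GRCm38, Gzma is at chr13:113093825-113100981 and Gzmk beside it at chr13:113171608-113225908, and Gzmb at chr14:56258838-56262260 lies near Gzmc at chr14:56231441-56234656. Gzmm is at chr10:79689020-79695261, Prf1 at chr10:61297833-61304680, Srgn at chr10:62493833-62527451 and Fasl at chr1:161780689-161788495. Their levels were measured in single cells of mouse liver and are given by lymphocyte subset, diet and week.

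The series compared 4 single-cell RNA libraries of liver non-parenchymal cells from male C57BL/6J mice that entered at 8 weeks of age. Control mice ate normal chow for 12 or 24 weeks. FAT-MASH mice, a model of metabolic dysfunction-associated steatohepatitis, received for the same times a Western diet with 1.25% cholesterol, 21.1% fat and a sucrose content of 41%, sugar water with 23.1 g/L fructose and 18.9 g/L glucose, and a low dose of the liver toxin carbon tetrachloride into the peritoneum each week. Livers stayed overnight on ice before enzymatic digestion, and a Percoll gradient removed most hepatocytes. Each combination of diet and week was 1 library, the number of mice behind it was not given, and what the hashtag antibodies in each library marked was not given either.

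Cytotoxic lymphocytes store granzymes, which are serine proteases, and perforin, which forms pores, in granules whose core is built on the proteoglycan serglycin. On contact with a target cell the granule is released, perforin lets the granzymes in, and the granzymes cleave substrates that lead to cell death. Fas ligand acts at the surface instead, by engaging the death receptor Fas. In the liver these proteins are known from natural killer (NK) cells, from the resident type 1 innate lymphoid cells (ILC1), from CD8 T cells and from innate-like T cells such as NKT cells.

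After filtering and removal of predicted doublets, the libraries held 16808 cells in 12-week chow, 15549 in 12-week MASH, 21301 in 24-week chow and 17757 in 24-week MASH, with medians of 2000, 3112, 2065 and 3199 unique molecular identifiers (UMIs, 1 per captured molecule). Clustering yielded 21796 T, NK and ILC cells, among them 2441 NK, 2414 ILC1, 1662 activated CD8 T, 1866 naive-like CD8 T and 6122 innate-like T cells. The 8 genes took part neither in the clustering nor in the naming of clusters. Innate-like T cells were the sum of cluster 0, with 1984 of its 3144 cells from 12-week chow, and cluster 1, with 2401 of its 2978 cells from 24-week chow. A cluster of 2141 cells scored highest for naive-like CD8 T cells but had Ly6c2, Gzmm and Klra6 among its leading genes, and is called the Ly6c2 Klra6 T cluster. Gzma and Prf1 in NK cells, Gzmc in ILC1 and Gzmk in activated CD8 T cells were nevertheless among the 10 leading genes of their clusters, so their levels by subset are descriptions. Of the defining markers, ILC1 had 394 to 569.8 CPM of Ncr1 and 11.1 to 18.6 CPM of Eomes, a transcription factor of NK cells, against 241 to 326 CPM in NK cells, and innate-like T cells carried the NKT regulator Zbtb16 at 30.4 to 107 CPM. The ILC1 cluster was not free of T cell RNA. Its 9 T cell markers summed to 1626 to 2802 CPM, against 827 to 922 CPM in NK cells and 4562 to 4974 CPM in innate-like T cells. Any pair of libraries shared 507 to 796 barcodes, where 501 to 783 would be shared at random. A level below is the UMIs of a gene summed over the cells of a subset in 1 library and scaled by all UMIs of that subset, in the usual unit CPM, and its 95% interval covers counting error only. With 1 library per group no p-value was computed.

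Gzma, granzyme A, was an NK cell gene in this liver. NK cells held 12312 (chow) and 9339 (MASH) CPM at 12 weeks and 12925 and 8685 CPM at 24 weeks. ILC1 held 3853 (chow) and 850.2 (MASH) CPM at 12 weeks and 3429 and 645 CPM at 24 weeks, and activated CD8 T cells 749.8 (chow) and 908 (MASH) CPM at 12 weeks and 1498 and 1050.5 CPM at 24 weeks. All 4 NK values lay above all 4 ILC1 values, whereas ILC1 and activated CD8 T cells changed places between chow and MASH. Innate-like T cells (5.53 to 47.9 CPM) and naive-like CD8 T cells (4.42 to 22.5 CPM) sat near B cells (7.75 to 23.4 CPM), which are not known to make granzyme A and serve here as the background of free RNA. Cycling lymphocytes, a mixed cluster, had 1364 to 1940.5 CPM. The Ly6c2 Klra6 T cluster had 56.2 to 192 CPM. B cells may be a low measure of this background. Endothelial cells had 103 to 208 CPM, which overlapped the Ly6c2 Klra6 T cluster. Whether Gzma in endothelial cells came from free RNA or from doublets was not tested.

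Gzmb, granzyme B, the granzyme best known for activating caspases, was shared more evenly. Its level in NK cells was 1106 (chow) and 769 (MASH) CPM at 12 weeks and 882 and 716 CPM at 24 weeks. In ILC1 it was 1219 (chow) and 612 (MASH) CPM at 12 weeks and 935 and 434 CPM at 24 weeks, so the NK and ILC1 values overlapped. Activated CD8 T cells had 330.1 (chow) and 542 (MASH) CPM at 12 weeks and 570.2 and 209 CPM at 24 weeks. Innate-like T cells, at 94.6 to 223 CPM, were far above B cells at 1.77 to 12.3 CPM, and regulatory T cells had 99.2 to 168 CPM. Endothelial cells had 40.3 to 107 CPM, a range that overlapped those of innate-like T and regulatory T cells.

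The remaining granzymes were each highest in a different subset, though not confined to it. Gzmc, granzyme C, lies with Gzmb in a cluster of related granzyme genes and was an ILC1 gene, at 174 (chow) and 164 (MASH) CPM at 12 weeks and 291 and 783 CPM at 24 weeks. Cycling lymphocytes had 9.08 to 285 CPM, the highest in 24-week MASH. NK cells reached 0.639 to 27.2 CPM, activated CD8 T cells 0 to 5.93 CPM and endothelial cells 2.97 to 47.9 CPM. Gzmk, granzyme K, known from memory and exhausted CD8 T cells, was highest in activated CD8 T cells at 89.7 (chow) and 286 (MASH) CPM at 12 weeks and 152 and 458 CPM at 24 weeks. Cycling lymphocytes had 11.4 to 111 CPM and regulatory T cells 7.11 to 91.9 CPM, ranges that overlapped that of activated CD8 T cells. NK cells, ILC1 and innate-like T cells stayed between 3.24 and 26.7 CPM. Gzmm, granzyme M, was highest in the Ly6c2 Klra6 T cluster, at 33.96 (chow) and 53.9 (MASH) CPM at 12 weeks and 51.2 and 82.1 CPM at 24 weeks. Cycling lymphocytes at 7.95 to 33.8 CPM, activated CD8 T cells at 10.8 to 32.5 CPM and NK cells at 14.7 to 19.6 CPM followed. The values of these last subsets overlapped. ILC1 held at most 4.396 CPM of Gzmm. The reads of Gzmb and Gzmc could in part be shared with related genes in their chromosome 14 cluster. The sources used here do not say how reads matching several genes were assigned.

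Perforin was highest in NK cells, as granzyme A was. Prf1 was at 981 (chow) and 709.8 (MASH) CPM at 12 weeks and 829 and 615 CPM at 24 weeks in NK cells, at 176 (chow) and 105 (MASH) CPM at 12 weeks and 147 and 79.95 CPM at 24 weeks in ILC1, and at 78.9 to 110.1 CPM in activated CD8 T cells. The ILC1 and activated CD8 T values overlapped. Innate-like T cells had 25.8 to 39.6 CPM and naive-like CD8 T cells 11.2 to 25.3 CPM. Fasl, the surface ligand, was spread over NK cells (82.6 to 180.2 CPM), ILC1 (74.2 to 138 CPM), innate-like T cells (76.3 to 112 CPM) and activated CD8 T cells (69.7 to 93.3 CPM), and these ranges overlapped. Naive-like CD8 T cells had 1.11 to 18.1 CPM.

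Srgn, the granule proteoglycan, was not restricted to killer cells. Neutrophils had the most, with 4179.8 (chow) and 4347 (MASH) CPM at 12 weeks and 7383 and 4808 CPM at 24 weeks, followed by basophils or mast cells with 2344 to 3929 CPM, cells that also store their products in granules. ILC1 had 1420.2 to 1807 CPM, NK cells 1006 to 1212 CPM and B cells 1292 to 1878 CPM. Naive-like CD8 T cells were the lowest of the T, NK and ILC subsets at 600.2 to 828 CPM. Hepatocytes, at 161 to 239.8 CPM, were lower still.

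**Figure D1:**
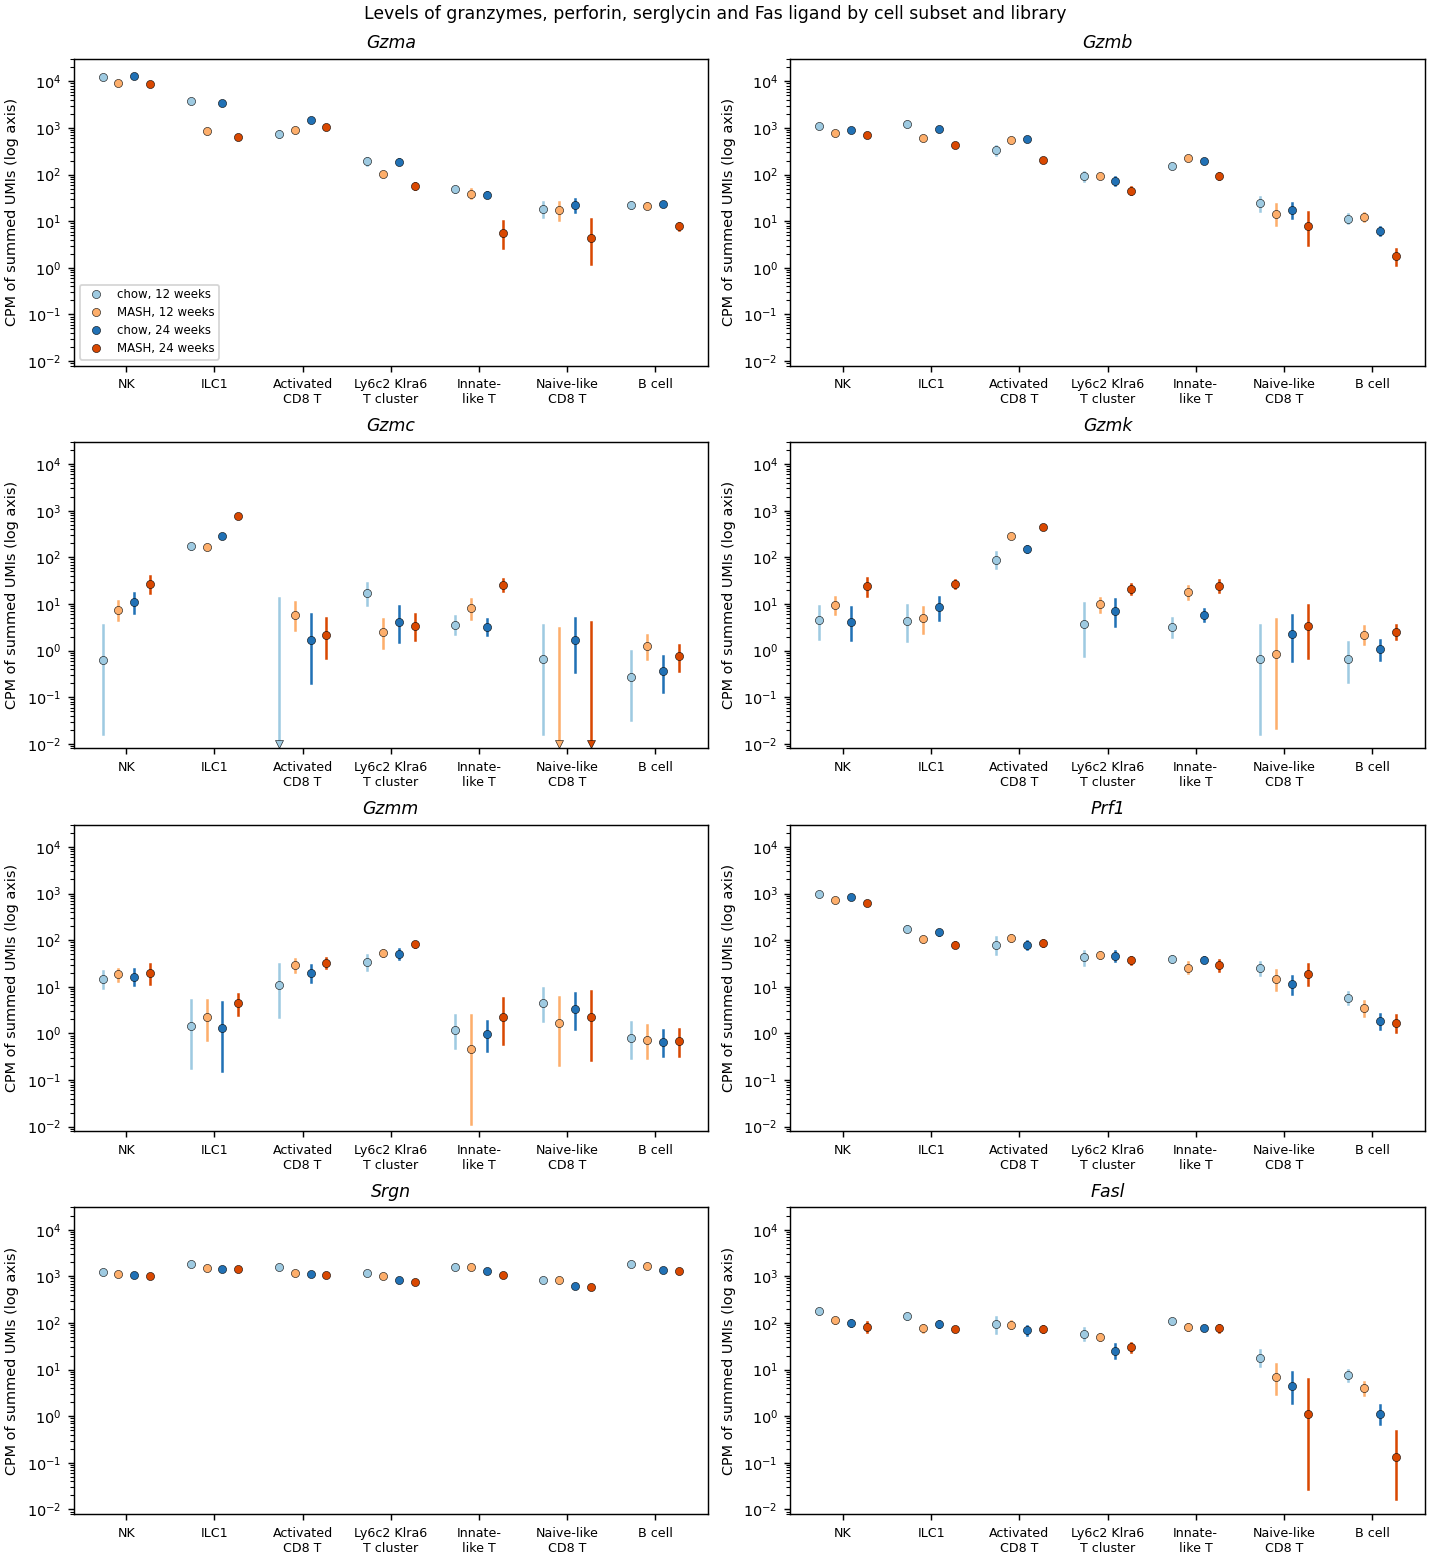
Level of each of the 8 genes, in CPM of summed UMIs on a log axis, in 6 lymphocyte subsets and in B cells. Points are the 4 libraries, lines the exact 95% counting intervals, and triangles mark libraries with no UMI. Gzma and Prf1 peak in NK cells, Gzmc in ILC1, Gzmk in activated CD8 T cells and Gzmm in the Ly6c2 Klra6 T cluster, while Srgn is high in every subset.

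The NK and ILC1 profiles differed in most of these genes. Over the 4 libraries, Gzma, Gzmm and Prf1 lay above in every NK sum and Gzmc and Srgn below, while Gzmb, Gzmk and Fasl overlapped. Of all genes with at least 20 UMIs, 6.13% were above and 9.23% below in the same way. Between activated and naive-like CD8 T cells, 7 of the 8 genes were above in every activated sum, all but Gzmc, against 20.9% of all genes. The Ly6c2 Klra6 T cluster was above activated CD8 T cells for Gzmm alone (3.65% of all genes were above) and below for Gzma, Gzmb, Gzmk, Prf1 and Fasl (12.4% below). Subsets of 1 library share their digestion and sequencing, so these are descriptions of 4 libraries.

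The share of each gene's UMIs that a subset supplied differed between the libraries. NK cells supplied 64.7%, 67.2%, 63.7% and 43.2% of all Gzma UMIs in 12-week chow, 12-week MASH, 24-week chow and 24-week MASH, and 56.9%, 52.8%, 55.7% and 32.4% of all Prf1 UMIs. ILC1 supplied 61.3%, 49.6%, 55.1% and 78.2% of Gzmc, activated CD8 T cells 18.1%, 40.2%, 36.2% and 42.5% of Gzmk, and the Ly6c2 Klra6 T cluster 20.1%, 35.6%, 31.4% and 40.9% of Gzmm. NK cells numbered 708, 746, 740 and 247 and activated CD8 T cells 102, 443, 428 and 689 in the same order, and a share combines this number with the level. Cell numbers describe the suspension after the gradient.

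MASH was compared with chow at each week by the ratio of CPM, with an exact conditional binomial 95% interval. A gene in a subset counted as higher where the ratio was at least 2, and as lower where it was at most 0.5, in both cases with an interval that left out 1. A ratio was formed where both libraries together had at least 20 UMIs of the gene and each had at least 20 cells of the subset. At 12 weeks, 32 of the 40 pairs of gene and subset could be compared, and 3 were higher (1.51% of all such pairs over all genes) and 2 lower (2.02%). At 24 weeks, of 33 comparable pairs, 7 were higher (1.9% of all) and 6 lower (2.16%). The rest lay between. The 8 pairs without a ratio at 12 weeks were of Gzmc, Gzmk and Gzmm, and the 7 at 24 weeks of these genes and Fasl, each in a subset with few of their UMIs.

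**Figure D2:**
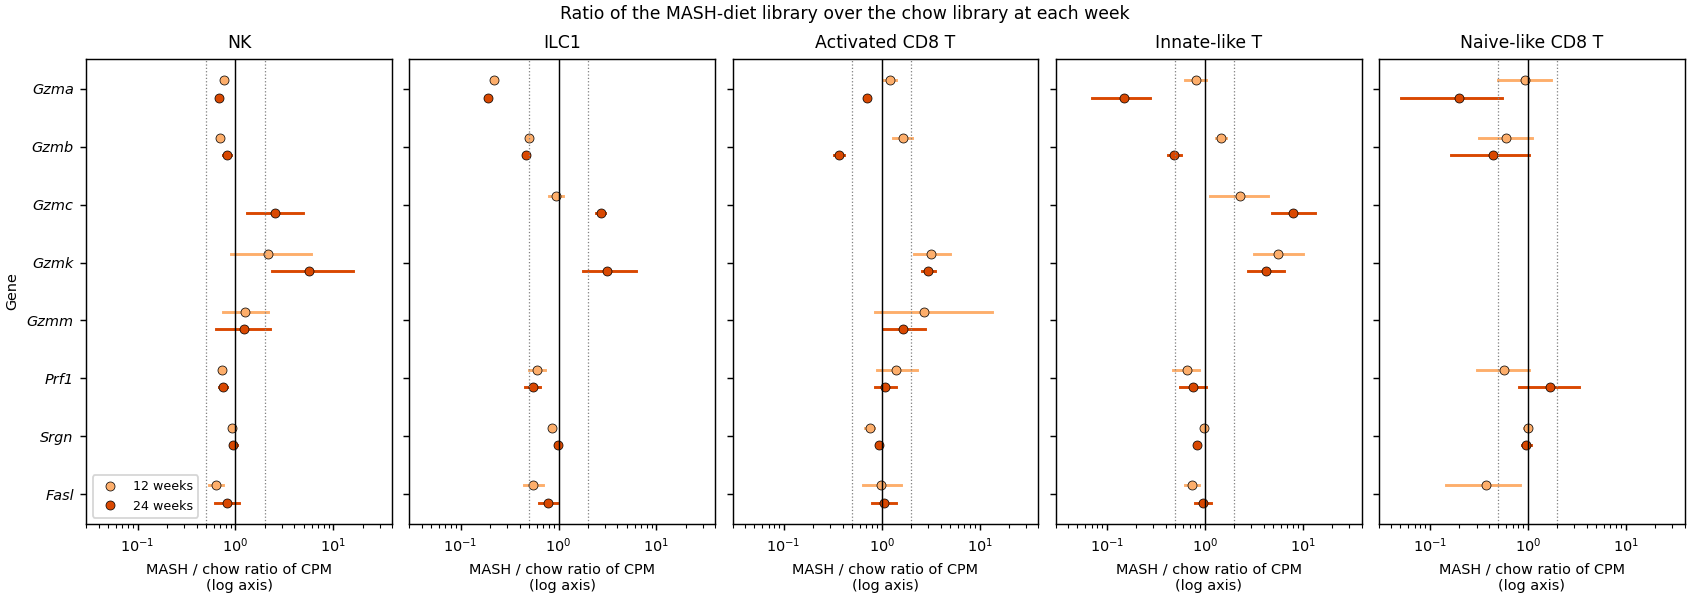
Ratio of MASH over chow in CPM, on a log axis, for each gene in 5 subsets at 12 weeks (light) and 24 weeks (dark). Lines are exact 95% counting intervals, the solid line marks equality and the dotted lines 2-fold differences. Gzma in ILC1 is at 0.221 and 0.188, and Gzmk in activated CD8 T cells at 3.19 and 3.01.

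ILC1 held less granzyme A in MASH at both weeks. Gzma in ILC1 went from 3853 to 850.2 CPM at 12 weeks, a ratio of 0.221 (0.209 to 0.233), and from 3429 to 645 CPM at 24 weeks, a ratio of 0.188 (0.179 to 0.198). Both chow libraries lay above both MASH libraries. It was lower at both weeks, as were 0.365% of all genes in ILC1. Gzmb, from 1219 to 612 and from 935 to 434 CPM, had ratios of 0.502 (0.467 to 0.5395) and 0.464 (0.432 to 0.499), the first just above the limit of 0.5 and the second below it. The 24-week ratio was 0.531 against chow cells of hashtags 1 to 4, 0.585 with MASH cells of hashtags 1 to 4 and 0.302 against chow cells of hashtags 5 to 8. Prf1 had 0.599 (0.498 to 0.719) and 0.544 (0.456 to 0.650), and Fasl 0.555 (0.448 to 0.686) and 0.781 (0.636 to 0.962), all below 1 and all short of 2-fold. Srgn had 0.853 (0.8095 to 0.898) and 0.976 (0.929 to 1.03).

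Granzyme C in ILC1 went the other way at the later week. Gzmc was at 174 and 164 CPM at 12 weeks, with a ratio of 0.942 (0.799 to 1.11), and at 291 and 783 CPM at 24 weeks, with a ratio of 2.69 (2.44 to 2.98). The 24-week MASH library was above the other three. Gzmk in ILC1 was low throughout, at 4.39 to 26.7 CPM, and its 24-week ratio was 3.15 (1.76 to 6.13), or 1.20 with MASH cells of hashtags 1 to 4. Endothelial cells had 3.34 to 43.5 CPM of Gzmk, and the part of free RNA in the ILC1 values was not tested. The median log2 ratio of the comparable genes among the 8 in ILC1 was -0.80 at 12 weeks and -0.36 at 24 weeks, beside -0.05 and -0.01 over all genes.

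Counted by cell, fewer ILC1 carried Gzma and Gzmb transcripts in MASH. After each cell was thinned to 1000 UMIs, which left out 19, 7, 15 and 18 shallower ILC1, 52.5%, 20.2%, 46.3% and 11.1% of ILC1 had a Gzma UMI in 12-week chow, 12-week MASH, 24-week chow and 24-week MASH (57.6%, 27.1%, 52.7% and 15.02% before thinning). In thinned B cells, whose median depth was 1650, 2454, 1800 and 2494.5 UMIs against 2430, 3807.5, 2709 and 3942 in ILC1, the shares were 2.31%, 2.07%, 1.81% and 0.755%. Thinned ILC1 with a Gzmb UMI made up 53.6%, 31.4%, 46.5% and 20.1%, against 0.979%, 0.7301%, 0.585% and 0.219% of B cells. For Gzmc the shares of ILC1 were 5.25%, 5.94%, 8.23% and 17.2%, and those of B cells at most 0.122%. Among ILC1 with any Gzma UMI the mean was 7.72, 4.505, 8.46 and 6.21 UMIs per thinned cell, lower in MASH at each week, as the share of cells was.

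Fewer ILC1 held granzymes A and B together in MASH. ILC1 with UMIs of both were 35.5%, 12.8%, 29.6% and 5.27% in the 4 libraries in the order above, and ILC1 with neither 29.4%, 61.2%, 36.8% and 74.0%. ILC1 with Gzmb alone were 18.1%, 18.6%, 16.9% and 14.9%, whereas those with Gzma alone were 17.02%, 7.42%, 16.7% and 5.85%. Of the 147 thinned ILC1 with a Gzmc UMI in 24-week MASH, 4.76% also had Gzma, against 12.4% of the others. In 24-week chow these shares were 47.5% of 40 cells and 46.2%. These shares pool all hashtags of a library. In 24-week MASH, ILC1 of hashtags 3, 4 and 8 had 1318, 1405 and 1088 CPM of Gzmc and 283, 326 and 246 CPM of Gzma. ILC1 of the other hashtags had 471 to 626 CPM of Gzmc and 348 to 1150 CPM of Gzma. Whether single cells within a hashtag differ in this way was not tested.

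**Figure D3:**
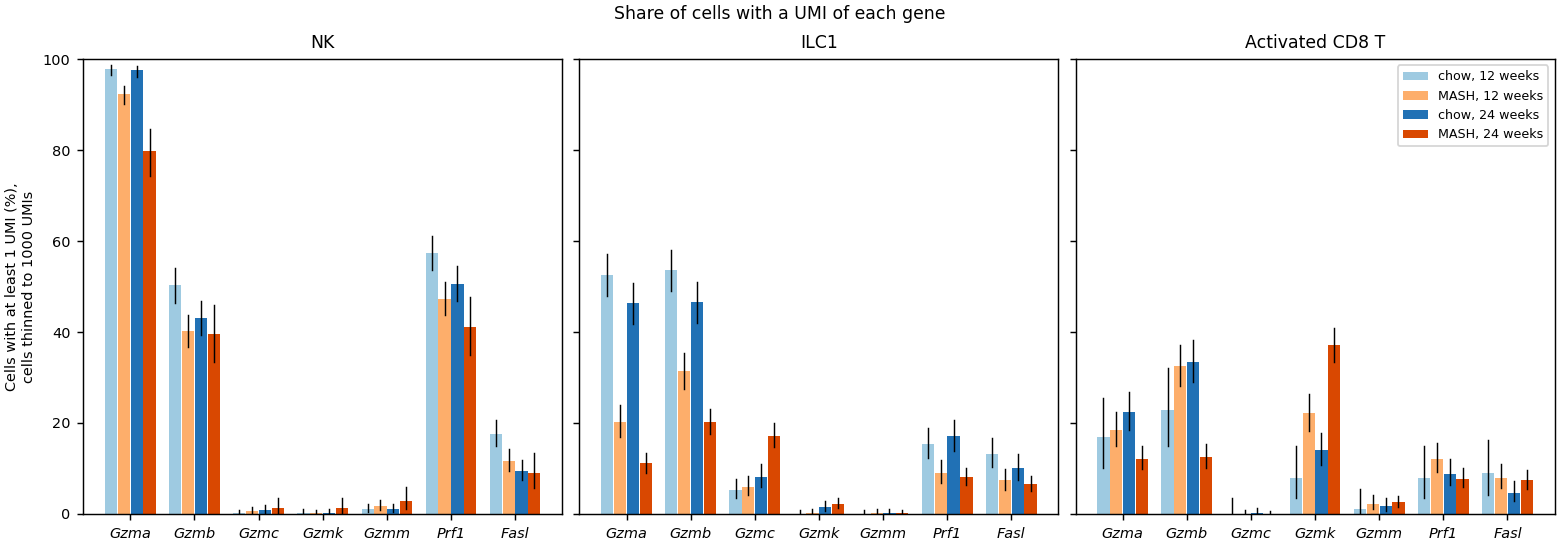
Share of NK, ILC1 and activated CD8 T cells with at least 1 UMI of each gene other than Srgn, in percent, with every cell thinned to 1000 UMIs. Bars are the 4 libraries and lines the exact 95% binomial intervals. The Gzma share of ILC1 is lower in both MASH libraries (20.2% and 11.1%) than in both chow libraries (52.5% and 46.3%).

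The spread within a library was read from cells with a single hashtag, with no claim that a hashtag is an animal. Gzma in ILC1 ranged over the 3 hashtags of each 12-week library from 3114 to 4283 CPM in chow and 698 to 1023 CPM in MASH. At 24 weeks it ranged from 2824 to 4727 CPM over 7 chow hashtags and from 246 to 1149.8 CPM over 8 MASH hashtags. The diets did not overlap at either week. At 12 weeks Gzma, Gzmb, Prf1, Srgn and Fasl were below every chow hashtag in every MASH hashtag, as were 11.2% of all genes in ILC1, and at 24 weeks Gzma and Prf1 were, as were 0.615% of all genes. Gzmc at 24 weeks ranged from 60.01 to 509.7 CPM in chow and 471 to 1405 CPM in MASH, which overlapped.

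The sum of 7 NK cell markers was lower in MASH ILC1 at both weeks, as Gzma was, but single markers differed in direction. The 7 markers Itgam, Itga2, Klra4, Klra8, Klra9, S1pr5 and Klrg1 summed to 227, 122, 150.3 and 81.1 CPM in ILC1, with 3, 4, 2 and 1 of them above 10 CPM and none at 0, against 2635, 2446, 2902 and 2174 CPM in NK cells. Klra8 in ILC1 was at 26.4, 5.33, 9.11 and 2.75 CPM. Itgam was at 5.86, 11.99, 5.85 and 8.79 CPM, higher in MASH at both weeks. The full list of 10 NK markers that named the clusters summed to 1172, 1069, 1308 and 1280 CPM in ILC1. With every ILC1 that held a UMI of any of the 7 markers left out, the Gzma ratios were 0.2205 (0.206 to 0.236) and 0.181 (0.171 to 0.191). This step keeps any NK cell whose markers were not captured, and the part of NK cells in the result was not tested. The T cell gene Cd3e in ILC1 was at 393, 237, 209 and 182 CPM, and the 9 T cell markers summed to 2802, 2009, 2134 and 1626 CPM. A list of 14 handling stress genes summed to 14694, 11584, 15209 and 13534 CPM. Each of these was lower in the MASH library at both weeks. Of the 14, only Hspa1b passed 2-fold, lower at 24 weeks with 0.498 (0.472 to 0.525). The part of the T cell and stress genes in the result was not tested.

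The promoters of Gzma, Gzmb and Prf1, which were all below chow in MASH ILC1, and of Gzmc, which was higher at 24 weeks, are shown side by side. Each run is the 250 bases before the RefSeq start of the gene on GRCm38.p6, read on the strand of the gene. Gzma is at chr13:113100982-113101231, Gzmb at chr14:56262335-56262584 and Gzmc at chr14:56234658-56234907, all on the minus strand, and Prf1 is at chr10:61297586-61297835 on the plus strand. Capitals mark matches on either strand to the Runt box TGTGGT, the T-box core TCACAC, the AP-1 site TGANTCA, the STAT site TTCNNNGAA and the ETS core AGGAAG.
Gzma: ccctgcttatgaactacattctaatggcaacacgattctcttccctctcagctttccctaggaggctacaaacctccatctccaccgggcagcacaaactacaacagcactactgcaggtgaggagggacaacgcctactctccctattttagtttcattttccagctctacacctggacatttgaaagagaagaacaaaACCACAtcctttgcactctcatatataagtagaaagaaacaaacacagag
Gzmb: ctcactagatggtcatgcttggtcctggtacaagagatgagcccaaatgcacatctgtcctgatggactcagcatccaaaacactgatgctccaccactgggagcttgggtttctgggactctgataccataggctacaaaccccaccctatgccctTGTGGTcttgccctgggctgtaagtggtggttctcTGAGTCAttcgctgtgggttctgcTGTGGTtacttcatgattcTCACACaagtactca
Gzmc: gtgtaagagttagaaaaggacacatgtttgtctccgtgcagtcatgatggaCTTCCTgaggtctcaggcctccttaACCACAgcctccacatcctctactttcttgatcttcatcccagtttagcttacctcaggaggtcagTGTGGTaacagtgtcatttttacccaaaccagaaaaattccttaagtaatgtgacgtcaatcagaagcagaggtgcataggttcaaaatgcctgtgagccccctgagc
Prf1: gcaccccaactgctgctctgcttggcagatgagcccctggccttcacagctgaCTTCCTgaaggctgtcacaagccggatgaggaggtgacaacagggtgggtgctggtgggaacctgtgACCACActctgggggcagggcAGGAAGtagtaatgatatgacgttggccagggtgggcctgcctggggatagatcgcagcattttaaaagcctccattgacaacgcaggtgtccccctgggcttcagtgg
The Runt box, bound by the RUNX factors of cytotoxic lymphocytes, was found once or more in all 4 windows, 1 time in Gzma and Prf1 and 2 times in Gzmb and Gzmc. Among the windows not shown, that of Gzmm held 1 Runt box and those of Gzmk, Srgn and Fasl held none. Gzmb was the one of the 4 with a T-box core and an AP-1 site, 1 of each, while Gzmc had 1 ETS core and Prf1 had 2. Of 32851 promoter windows of this length, 14% held the Runt box, 12.3% the T-box core, 6.75% the AP-1 site, 7.02% the STAT site and 29.5% the ETS core, and the matches shown did not overlap. A match is a string of letters, and no binding was measured here.

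NK cells showed smaller differences of the same sign. Gzma in NK cells had ratios of 0.759 (0.744 to 0.773) and 0.672 (0.655 to 0.689), Prf1 0.724 (0.675 to 0.776) and 0.742 (0.672 to 0.819), and Gzmb 0.695 (0.6503 to 0.742) and 0.812 (0.7397 to 0.891). Fasl had 0.634 (0.535 to 0.752) and 0.821 (0.617 to 1.08), the later interval including 1. None of these reached 2-fold. After thinning, 97.8%, 92.3%, 97.6% and 79.8% of NK cells had a Gzma UMI, 50.3%, 40.2%, 43.1% and 39.5% a Gzmb UMI and 57.4%, 47.4%, 50.6% and 41.2% a Prf1 UMI, in the order of libraries above, with 22, 7, 41 and 4 shallower cells left out. The Gzma share was lowest in 24-week MASH, the library with the fewest NK cells. Over hashtags, Gzma, Gzmb, Prf1 and Fasl were below chow in every 12-week MASH hashtag, as were 10.5% of all genes, while at 24 weeks none of the 8 was below or above throughout (0.252% of all genes were below and 0.0796% above). Gzma there ranged from 10935 to 15857 CPM in chow and 5984 to 16692 CPM in MASH. Gzmc and Gzmk in NK cells rested on few UMIs. Gzmc had 1 UMI in 12-week chow and 18 in 12-week MASH, fewer than the 20 set for a ratio. At 24 weeks its ratio was 2.52 (1.32 to 4.902) from 18 and 25 UMIs. The 25 UMIs were in 6 of 247 cells, and 20 of them were in cells of hashtag 5. Gzmk had 2.15 (0.891 to 5.92) and, from 7 and 22 UMIs, 5.701 (2.35 to 15.8). Its levels in NK cells, 4.19 to 23.9 CPM, lay within the range of endothelial cells, 3.34 to 43.5 CPM. The part of free RNA in them was not tested. With MASH cells of hashtags 1 to 4 the 24-week ratios were 1.11 for Gzmc and 1.72 for Gzmk. Stress genes summed to 16548, 15400.5, 19001 and 14632 CPM in NK cells, with Hspa1a higher in MASH at 12 weeks, 3.09 (1.87 to 5.37), and Hspa1a and Hspa1b lower at 24 weeks, 0.484 (0.427 to 0.546) and 0.432 (0.392 to 0.476). Their part in these differences was not tested.

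Activated CD8 T cells held more granzyme K in MASH at both weeks. Gzmk there went from 89.7 to 286 CPM at 12 weeks, a ratio of 3.19 (2.13 to 4.98), and from 152 to 458 CPM at 24 weeks, a ratio of 3.01 (2.57 to 3.54). It was higher at both weeks, as were 0.307% of all genes in this subset. Both MASH libraries lay above both chow libraries. The 12-week chow value rests on 102 cells and 25 UMIs. After thinning, 7.92%, 22.1%, 14.04% and 37.1% of the cells had a Gzmk UMI, against at most 0.278% of B cells, with 1, 4, 22 and 15 shallower cells left out. Over hashtags at 24 weeks Gzmk ranged from 97.4 to 214 CPM in chow and 275 to 633 CPM in MASH with no overlap, as did 0.605% of all genes in this direction. At 12 weeks the single chow hashtag with 20 cells or more had 57.2 CPM and the MASH hashtags 227 to 446 CPM. The 24-week ratio was 1.82 with stricter limits on cells and 1.79 against chow cells of hashtags 5 to 8.

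Granzymes A and B in activated CD8 T cells differed in opposite ways at the 2 weeks. Gzmb went from 330.1 to 542 CPM at 12 weeks, a ratio of 1.64 (1.32 to 2.06), and from 570.2 to 209.5 CPM at 24 weeks, a ratio of 0.367 (0.326 to 0.414). The later MASH library was the lowest of the 4 and the earlier one close to 24-week chow. The 12-week ratio was 1.03 with stricter limits on cells, and the 24-week ratio 0.570 with MASH cells of hashtags 1 to 4. At 24 weeks every MASH hashtag (122 to 459 CPM) was below every chow hashtag (483 to 751 CPM), as were 0.379% of all genes. Thinned cells with a Gzmb UMI made up 22.8%, 32.6%, 33.5% and 12.6% in the order above. Gzma had ratios of 1.21 (1.05 to 1.41) and 0.701 (0.659 to 0.746). Prf1 had 1.39 (0.891 to 2.29) and 1.09 (0.8497 to 1.41), Fasl 0.989 (0.648 to 1.57) and 1.05 (0.803 to 1.39), and Gzmm 2.69 (0.864 to 13.6) and 1.66 (1.03 to 2.78).

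The Gzma level of activated CD8 T cells came from a minority of cells and was uneven within libraries. Only 16.8%, 18.5%, 22.4% and 12.2% of thinned cells had a Gzma UMI. In 24-week MASH, hashtags 1 to 4 had 26.5 to 379 CPM and hashtags 5 to 8 had 1270.0 to 2468 CPM, and in 24-week chow the hashtags ranged from 719.7 to 5303 CPM. For Gzmb the order was the other way, with 172 to 459 CPM in hashtags 1 to 4 and 122 to 152 CPM in hashtags 5 to 8 of 24-week MASH. The 7 NK markers summed to 136, 50.8, 169 and 53.8 CPM in this subset, with 4, 2, 4 and 2 of them above 10 CPM. Klrg1, 1 of the 7, was also among the leading genes of a T cell cluster with Foxp3 and Ctla4. The 7 markers together therefore do not mark NK cells alone, and which cells held them here was not tested. Without the cells that held one of these markers, an alternative chosen after the data were seen, the Gzma ratios were 4.36 (3.21 to 6.05) and 1.62 (1.46 to 1.79). With stricter limits on cells they were 0.771 (0.667 to 0.894) and 0.294 (0.276 to 0.313), so the direction of Gzma here depended on which cells were counted. Stress genes summed to 13679.9, 11152, 13191 and 12599.7 CPM in this subset, while at 12 weeks 2 of them were higher in MASH, Hspa1a with 8.08 (3.10 to 29.996) and Hspa1b with 12.4 (4.77 to 45.7). Their part was not tested. The Gzmb and Gzmk ratios at 24 weeks were 0.324 (0.282 to 0.372) and 2.93 (2.45 to 3.53) without the cells holding NK markers.

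**Figure D4:**
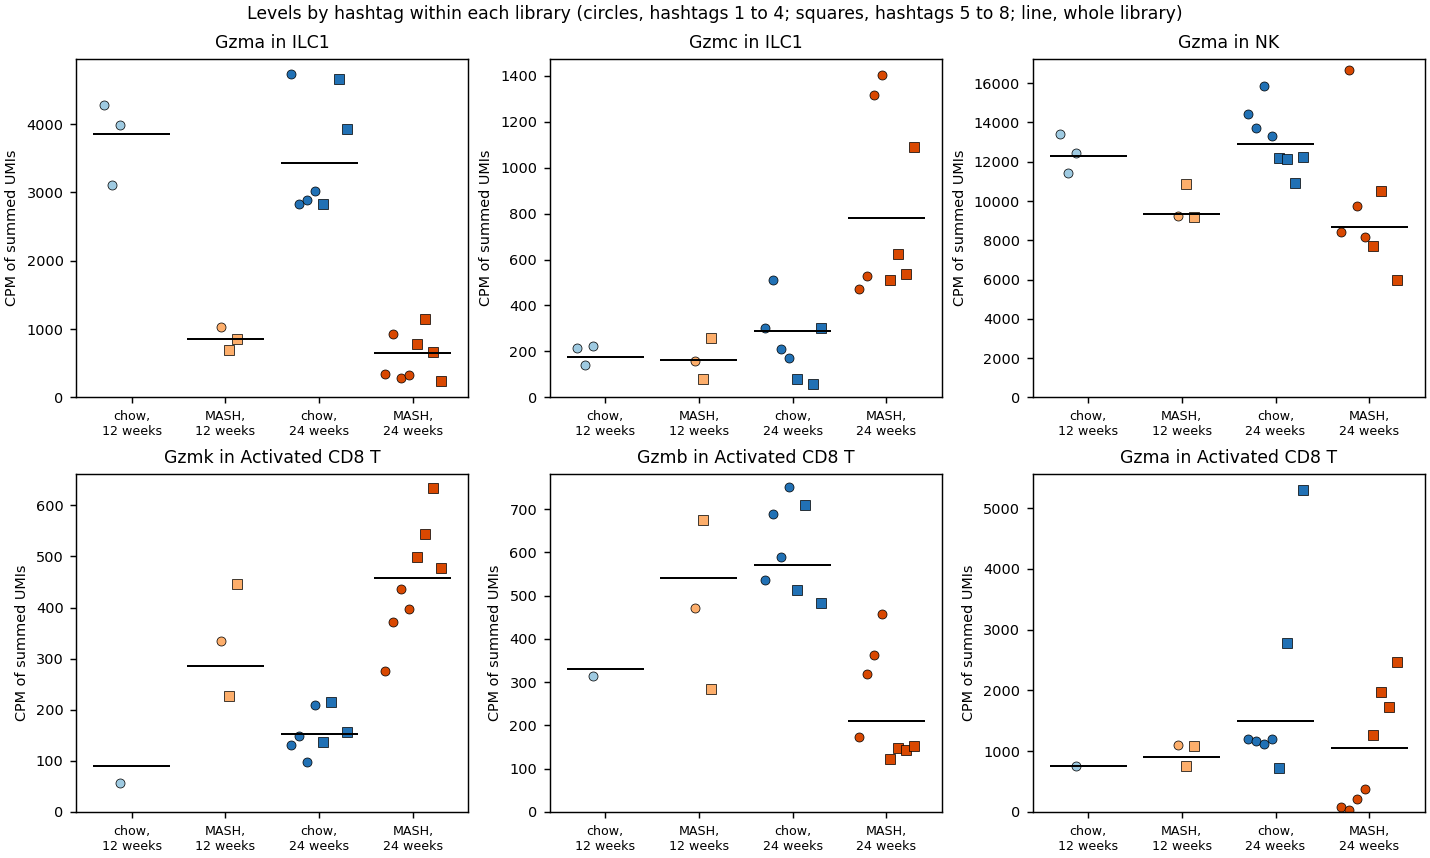
Level in CPM of summed UMIs by hashtag for 6 pairs of gene and subset, with circles for hashtags 1 to 4, squares for hashtags 5 to 8 and a line for the whole library. Only hashtags with at least 20 single-hashtag cells of the subset are drawn. Gzma in ILC1 is separated by diet at both weeks, and Gzma in activated CD8 T cells of 24-week MASH splits into 26.5 to 379 CPM in hashtags 1 to 4 and 1270.0 to 2468 CPM in hashtags 5 to 8.

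Innate-like T cells, whose granzyme transcripts were mainly Gzmb, showed the same opposite course for that gene in the library sums. Gzmb went from 152 to 223 CPM at 12 weeks, a ratio of 1.47 (1.31 to 1.64), and from 192.5 to 94.6 CPM at 24 weeks, a ratio of 0.491 (0.417 to 0.576). At 12 weeks the hashtags of the diets overlapped, with 77.5 to 248 CPM in chow and 196 to 245 CPM in MASH. At 24 weeks every MASH hashtag was below every chow hashtag, as were 0.775% of all genes in this subset. The 12-week ratio was 0.860 with stricter limits on cells, and the 24-week ratio 0.642 with MASH cells of hashtags 1 to 4. The 2 clusters that made up this subset held most of its cells at different weeks, as given above. In this subset the 7 NK markers summed to 33.6, 90.5, 38.4 and 182 CPM, with 2, 3, 2 and 1 of them above 10 CPM and 0, 0, 0 and 2 at 0. Zbtb16 was at 107, 53.9, 71.9 and 30.4 CPM, Ly6c2 at 348, 1025, 463 and 1745 CPM and the stress genes together at 13928, 13191, 17070.1 and 19089.9 CPM. The sum of the 7 NK markers and Ly6c2 were higher and Zbtb16 lower in MASH at both weeks. As said above, the 7 markers together do not mark NK cells alone. Not every NK marker rose, and Klra8 was at 3.07, 0.453, 1.32 and 0 CPM. The full list of 10 NK markers summed to 233, 216, 238 and 331 CPM, lower in MASH at 12 weeks. Hspa1a, Hspa1b and Egr1 were at least 2-fold higher at 12 weeks. The part of these markers and stress genes in the differences was not tested. Prf1 had 0.652 (0.479 to 0.875) and 0.768 (0.563 to 1.03) and Fasl 0.747 (0.631 to 0.881) and 0.965 (0.797 to 1.16). Gzmk was higher in MASH at both weeks, with 5.59 (3.16 to 10.2) and 4.24 (2.75 to 6.51), as were 0.305% of all genes, but the 12-week call was lost under 3 of 10 alternatives and the 24-week ratio was 1.17 with MASH cells of hashtags 1 to 4. Its levels of 3.24 (chow) and 18.1 (MASH) CPM at 12 weeks and 5.74 and 24.3 CPM at 24 weeks were close to those in endothelial cells, 3.34 (chow) and 21.7 (MASH) CPM at 12 weeks and 7.05 and 43.5 CPM at 24 weeks. The part of free RNA in these low values was not tested. Gzmc had 2.28 (1.14 to 4.48) at 12 weeks, a call lost under 5 of 10 alternatives with a lowest ratio of 1.52, and 8.04 (4.91 to 13.4) at 24 weeks, from 27 and 47 UMIs. Of the 47, 38 were in cells of hashtag 3, at 197 CPM, and the other hashtags were at 0 to 35.5 CPM. Without cells holding NK markers the 24-week Gzmc ratio was 1.61 (0.592 to 3.82). Gzma, from 37.1 to 5.53 CPM at 24 weeks, had 0.149 (0.0708 to 0.278), while B cells went from 23.4 to 7.75 CPM. The ratio was 0.722 without removal of doublets and 1.30 with each cell assigned by its own marker score.

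Naive-like CD8 T cells and the Ly6c2 Klra6 T cluster had low levels of Gzma, Gzmb and Prf1. In naive-like cells Fasl was lower in MASH at 12 weeks, 0.374 (0.147 to 0.842) from 28 and 8 UMIs. This call was lost under 3 of 10 alternatives, and the ratio was 1.07 with each cell assigned by its own marker score. Gzma was lower at 24 weeks, 0.197 (0.0511 to 0.544) from 40 and 4 UMIs, at or below the level of B cells in every library, and this call was lost under 2 of 14 alternatives. In the Ly6c2 Klra6 T cluster Gzmm, its leading granzyme, had 1.59 (1.06 to 2.45) and 1.603 (1.24 to 2.103), short of 2-fold at both weeks. There Gzmc was lower at 12 weeks, 0.149 (0.0568 to 0.369) from 14 and 9 UMIs (1.72% of all genes were lower). At 24 weeks Gzma was lower, from 187 to 56.2 CPM (1.26% of all genes were lower), and Gzmk higher, 2.99 (1.53 to 6.51) (1.61% were higher). The Gzmk levels of this cluster, 3.64 to 20.7 CPM, lay within the range of endothelial cells, 3.34 to 43.5 CPM.

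The 24-week libraries were also set against the 12-week libraries within each diet. In chow, of 31 comparable pairs of gene and subset 0 were higher at 24 weeks (2.52% of all pairs over all genes) and 2 lower (1.81%), Prf1 and Fasl in naive-like CD8 T cells. In chow activated CD8 T cells Gzma was just short of 2-fold higher at 24 weeks, with 1.998 (1.73 to 2.32), and Gzmb had 1.73 (1.39 to 2.17) and Gzmk 1.696 (1.11 to 2.69). In MASH, of 34 pairs 5 were higher (3.14%) and 4 lower (2.36%). Higher were Gzmc in ILC1, 4.77 (4.27 to 5.32), in NK cells, 3.62 (1.896 to 7.04), and in innate-like T cells, 3.19 (1.82 to 5.84), and Gzmk in NK cells, 2.49 (1.32 to 4.68), and in ILC1, 5.46 (2.92 to 11.3). In 24-week MASH the Gzmc UMIs were in only 6 of 247 NK cells and 5 of 519 innate-like T cells. Gzmk reached at most 23.9 CPM in NK cells and 26.7 CPM in ILC1, against up to 43.5 CPM in endothelial cells. Lower were Gzmb in activated CD8 T cells, 0.387 (0.345 to 0.433), and in innate-like T cells, 0.425 (0.355 to 0.506), and Gzma in innate-like T and naive-like CD8 T cells. These comparisons share libraries with those of the diets.

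Genes that serve the same granules passed the 2-fold limits about as often as all genes did. Of 15 genes of granule maturation and release, 118 comparisons over NK cells, ILC1, activated CD8 T and innate-like T cells at both weeks gave 2 higher and 0 lower, where all genes gave 1.84% higher and 2.1% lower. The 2 were Lamp1 at 12 weeks and Ctsh at 24 weeks in activated CD8 T cells. These and Serpinb6a, Serpinb9b, Fas, Zeb2 and Il12rb2 below are named because of their values. Ctsw, a cathepsin of killer cells, and Nkg7, a granule membrane protein, were abundant, at up to 1140.2 and 5358 CPM in these subsets, and lay within 2-fold everywhere. In ILC1 their ratios were 0.838 (0.777 to 0.905) and 1.21 (1.14 to 1.29), and 0.754 (0.725 to 0.784) and 0.953 (0.918 to 0.9901). Of the granzyme inhibitors, Serpinb9 in ILC1 had 1.36 (1.12 to 1.65) and 0.708 (0.553 to 0.9104), and 1 higher (Serpinb6a, activated CD8 T, 24 weeks) and 1 lower (Serpinb9b, NK, 12 weeks) were found in 26 comparisons. Of the death receptor pathway 1 of 54 was higher (Fas, the receptor of Fas ligand, in ILC1 at 12 weeks) and 0 lower. The other granzymes of the chromosome 14 cluster, Gzmd, Gzme, Gzmf, Gzmg and Gzmn, had at most 1 UMI in any of these subsets in any library.

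Among 13 regulators of the cytotoxic programme, 102 comparisons gave 5 higher and 2 lower, beside 1.84% higher and 2.1% lower over all genes, and the 2 lower are near that share. Eomes, a T-box factor of effector and memory T cells, was higher in activated CD8 T cells at both weeks, 3.001 (1.68 to 5.91) and 4.53 (3.303 to 6.37). So was Tox, a factor of exhausted T cells, with 3.58 (2.05 to 6.81) and 3.65 (2.84 to 4.77). Both are among the markers that named this subset. Zeb2, an effector regulator, was higher in innate-like T cells at 12 weeks and, with Il12rb2, lower in activated CD8 T cells at 24 weeks. In ILC1 all 13 regulators and all 15 granule genes lay between these limits at both weeks, as did 8522 of 8859 genes tested at 12 weeks and 9234 of 9677 at 24 weeks, so this says nothing particular about these lists. The interleukin 15 receptor chain Il2rb, for example, had 1.13 (1.06 to 1.19) and 0.9703 (0.924 to 1.02) there.

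The genes whose levels followed those of 7 of the 8 most closely, all but the low Gzmm, over 38 sums of 10 T, NK and ILC subsets in the 4 libraries were picked by Pearson's r of log2(CPM + 1) among 5215 genes. The sums share libraries and subsets, so r is a description. Gzma was followed by Ccl3 (r = 0.88), Plek (0.88) and Snx5 (0.87), and Prf1 by Tm6sf1 (0.91), Nkg7 (0.91) and Sytl3 (0.88). Gzmb went with Slamf7, AW112010 and Nkg7 (all 0.90), and Fasl with Il2rb (0.93), Slamf7 (0.91) and Nkg7 (0.89). Gzmc was nearest to C1qtnf6 (0.76), Cd200r2 (0.72) and Cd200r4 (0.72), and Gzmk to Psmb9 (0.78), Tspan3 (0.78) and Tap1 (0.76). Srgn was nearest to Fnbp1 (0.87), Srrm2 (0.85) and Prkar1a (0.84). Within the 8 genes r was highest for Gzmb and Fasl (0.87) and lowest for Srgn and Gzmm (-0.44).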

How the data were processed

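Single-cell RNA was measured in 4 libraries, 1 per diet and week, with a 10x 5' kit. The authors deposited raw UMI counts per gene and cell barcode. Cell Ranger 5.0.1 is named for 3 libraries and version 4 for 12-week MASH in the submitters' processing notes, with builds mm10 and GRCh38 but no role for either. The 12-week MASH matrix was unfiltered, so every column holding 500 UMIs or more was treated as a cell.

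Cells with at least 500 gene UMIs, 300 genes and at most 15% mitochondrial UMIs were kept. Scrublet doublets (8.83 to 21.9% of cells) were removed. Kept cells gave 45356105 to 86636713 UMIs per library. Cells with several hashtags, 14.7 to 27.8% of those kept, stayed in and were left out as an alternative. Cells were clustered with scanpy 1.11.5 and leidenalg 0.10.2 (2000 variable genes, 30 components, 15 neighbours, resolution 1), leaving out the 8 genes, and named from marker lists. UMIs were summed per subset and library. Exact Poisson, conditional binomial and Clopper-Pearson intervals (scipy 1.17.1) cover counting error only, and no test was made, with 1 library per group. For shares of cells, each cell was thinned to 1000 UMIs. On simulated ILC1 counts, 97.5 to 100% of 3-fold and 4-fold changes were recovered over 8820 genes at 12 weeks and 95.1 to 100% over 9692 genes at 24 weeks, and 0.95% and 0.747% of unchanged genes were called. The simulated counts held Poisson error alone, so these rates do not cover variation between cells, hashtags or mice.

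The 8 genes and the gene lists were chosen with earlier results of these data known. The named genes were the 8 members, the 2 genes of each list with the highest mean level, list genes past 2-fold in one direction at both weeks, and the 3 genes most like each member with a level of 100 CPM or more in any subset, and any other is said to be named for its values. Alternatives were no doublet removal, stricter cells (1000 UMIs, 500 genes, 10% mitochondrial), resolutions 0.6 and 1.6, each cell by its own marker score, single-hashtag cells, subsets of hashtags, other scalings, no minimum of UMIs and cells with NK markers left out.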

Additional observations from a re-analysis of the deposited data

Results flagged for a closer look

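The MASH over chow ratio lay on opposite sides of 1 at the 2 weeks, with intervals that left out 1, for 3 pairs of gene and subset. Gzma in activated CD8 T cells had a ratio of 1.21 at 12 weeks and 0.701 at 24 weeks. Gzmb in activated CD8 T cells had 1.64 and 0.367. Gzmb in innate-like T cells had 1.47 and 0.491. At 12 weeks the Gzmb hashtag values of the diets overlapped in innate-like T cells. In activated CD8 T cells the single chow hashtag lay within the MASH range of Gzmb. The difference between the weeks was not tested, since each ratio rests on 1 library per group.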

How the results depend on the processing

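With 1 library per group no library could be left out, and counting intervals do not cover differences between mice. No paired analysis was possible because the groups compared at each week share fewer than 2 replicate numbers. A fit of diet with week as a block, which would take the weeks as replicates, was not run. Gzma in ILC1 stayed lower under every alternative run at 12 weeks (0.206 to 0.263) and 24 weeks (0.128 to 0.212), as did Gzmc in ILC1 at 24 weeks on the higher side (2.28 to 3.35) and Gzmk in activated CD8 T cells at 12 weeks (2.23 to 8.44). The 3 higher pairs at 12 weeks became 1 at resolution 1.6 and 5 with the mean of the cells' own CPM. The 2 lower pairs became 5 with stricter cells, 4 with the mean of the cells' own CPM and 1 without cells holding NK markers. The 7 higher pairs at 24 weeks became 3 with MASH cells of hashtags 1 to 4. With each cell assigned by its own marker score, Fasl in naive-like CD8 T cells at 12 weeks turned to 1.07 and Gzma in innate-like T cells at 24 weeks to 1.30. Gzmc in innate-like T cells at 24 weeks was 0 without removal of doublets. The cause was not tested. The alternatives with NK markers and with MASH hashtags were chosen after seeing the data.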
